A study of Rattus norvegicus with 8 samples.

Results

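Fos, Junb, Egr1 and Arc are immediate early genes, and their RNA was followed here in the prefrontal cortex (PFC) and hippocampus of rats under chronic stress. The members are 4 of the 31185 Ensembl gene IDs listed in the deposited table and were taken by ID: ENSRNOG00000008015 for Fos, ENSRNOG00000042838 for Junb, ENSRNOG00000019422 for Egr1 and ENSRNOG00000043465 for Arc. The symbols were given with these IDs. No annotation used here lists rat Ensembl IDs, so the match of ID and symbol was not checked. All 4 members were among the 12155 genes whose mean over the 8 libraries reached 1 FPKM (fragments per kilobase of the gene model, scaled to library size).

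The series holds bulk RNA-seq of adult male rats of the outbred Sprague-Dawley strain, weighing 180 to 200 g. The control was an unstressed rat given saline. The other groups were rats under the stress protocol that the labels call CMS, given saline, methylglyoxal (MGO, a reactive by-product of glycolysis) or luteolin (a plant flavonoid). Daily intraperitoneal injections covered the last 3 weeks of stress, and PFC and hippocampus were dissected in week 7. The labels give MGO as 5 mM/kg/day in the design and as 100 mM/kg in the protocol, and luteolin as 10 mg/kg/day. There is 1 library per tissue and treatment. The protocol names 1 unstressed rat and a stressed rat each for saline and MGO, and does not mention the rat given luteolin. A difference between treatments is therefore a difference between 2 libraries and was not tested. The labels used here do not give the interval between the last injection or stressor and dissection. The description code of both CMS + saline libraries differs from that of the other 6, and 4 of those 6 come from stressed rats. The code thus goes with CMS + saline and not with stress as such. In every comparison with CMS + saline, with the control or with either drug, the treatment, the individual rat and the code cannot be told apart. In bulk tissue, fewer cells of a type and less RNA per cell cannot be told apart either. With the IDs not paired with symbols, the tissue labels were not checked against marker genes, and other activity-induced genes were not evaluated.

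Immediate early genes are transcribed soon after a neuron is stimulated, without the need for new protein synthesis, and their RNA is short-lived. Calcium entry and MAP kinase signalling act on factors that are already bound at their promoters, among them SRF, which binds the CArG box, and CREB, which binds the cAMP response element. Fos and Junb encode leucine zipper proteins that pair to form AP-1, Egr1 encodes a zinc finger transcription factor, and Arc encodes a protein at synapses that takes part in the removal of AMPA receptors from the surface. In PFC and hippocampus their RNA is widely used as a marker of recent neuronal activity.

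Promoter sequences from RefSeq (build GRCr8) were found by symbol for 2 of the 4 members, Egr1 and Junb. They are shown as the members with an entry, to set the sequence of a member beside its values. Each is the 250 bases before the annotated start, 5′ to 3′ on the plus strand, chr18:26736828-26737077 for Egr1 and chr19:40080876-40081125 for Junb. Capitals mark matches, on either strand, to the CArG box, to TGACG, the core of the cAMP response element, and to the TATA box TATAAA.
Egr1: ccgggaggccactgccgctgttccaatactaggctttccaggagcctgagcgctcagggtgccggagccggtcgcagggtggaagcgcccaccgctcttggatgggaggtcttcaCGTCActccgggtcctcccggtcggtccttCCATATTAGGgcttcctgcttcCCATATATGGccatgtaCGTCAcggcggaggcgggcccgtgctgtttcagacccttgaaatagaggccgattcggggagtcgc
Junb: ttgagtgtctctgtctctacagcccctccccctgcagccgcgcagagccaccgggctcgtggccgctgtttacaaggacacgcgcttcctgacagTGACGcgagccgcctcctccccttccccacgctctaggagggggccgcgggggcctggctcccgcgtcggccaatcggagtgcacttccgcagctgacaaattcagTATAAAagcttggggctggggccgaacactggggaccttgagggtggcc

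The Egr1 window holds 2 CArG boxes, CCATATTAGG from 105 to 96 and CCATATATGG from 83 to 74 bases before the start, and 2 TGACG cores. A CArG box lies in 1.5% of the 33469 promoter windows of this length, and 7 windows (0.0209%) hold 2 or more. The Junb window holds 1 TGACG core, from 155 to 151, and a TATA box, from 49 to 44 bases before the start. TGACG lies in 18.2% and TATAAA in 12.9% of all windows. The full element TGACGTCA (1.59% of windows), the AP-1 site TGANTCA (6.34%) and the EGR site GCGNGGGCG (4.29%) were also searched on both strands, and these letters are in neither window. TGACG is part of the full element. A match is a description of the sequence and was not tied to any value below.

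Egr1 was the most abundant of the 4 members by mean FPKM in each tissue. It was at 40 FPKM in control PFC, 32.1 FPKM with CMS + saline, 20.3 FPKM with CMS + MGO and 24 FPKM with CMS + luteolin. In hippocampus it was at 16.6 FPKM in the control, 22 FPKM with CMS + saline, 11.6 FPKM with CMS + MGO and 25.8 FPKM with CMS + luteolin. The CMS + MGO library was the lowest in each tissue, and the ranges of the tissues overlapped. The share of the 12155 genes with a lower value than Egr1 ran from 60.6% in CMS + MGO hippocampus to 87.8% in control PFC.

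Fos was low in most libraries. It was at 3.82 FPKM in control PFC, 11.8 FPKM with CMS + saline, 3.14 FPKM with CMS + MGO and 4.32 FPKM with CMS + luteolin. In hippocampus the values were 2.28 FPKM in the control, 3.09 FPKM with CMS + saline, 1.35 FPKM with CMS + MGO and 3.16 FPKM with CMS + luteolin. The CMS + saline PFC library stood above the other 7, and CMS + MGO was again the lowest of each tissue. In that PFC library 62.2% of genes were lower than Fos, and in the other 7 the share was 8.58% to 32.3%.

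Arc had the widest range of the members that were above 0 in every library. It was at 13.6 FPKM in control PFC, 44.5 FPKM with CMS + saline, 9.09 FPKM with CMS + MGO and 2.78 FPKM with CMS + luteolin, so the highest PFC value was 16 times the lowest. In hippocampus it was at 7.9 FPKM in the control, 13.4 FPKM with CMS + saline, 6.57 FPKM with CMS + MGO and 18.9 FPKM with CMS + luteolin. CMS + luteolin was thus the lowest PFC library and the highest hippocampus library for Arc. In RefSeq's GRCr8 annotation Arc overlaps the non-coding gene LOC134479925. Whether the authors' counting used strand is not given in the sources used here, so reads of overlapping genes may not be separated.

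Junb went between 0 and high values. In PFC it was listed at 0 in the control, at 2.29 FPKM with CMS + saline, at 25.3 FPKM with CMS + MGO and at 1.53 FPKM with CMS + luteolin. In hippocampus it was at 2.1 FPKM in the control, at 26.3 FPKM with CMS + saline, and listed at 0 with CMS + MGO and with CMS + luteolin. A single library was high in each tissue, under a different treatment in PFC than in hippocampus. Of the 12155 genes, 229 (1.88%) were listed at 0 in at least 1 library, and 111 of the 12155 (0.913%) were also at 10 FPKM or more in another. A value listed at 0 can be a failed estimate, so no ratio is given against it. Counts at 2-fold below use log2(FPKM + 1) and include such values, and the size of their difference depends on the number added. For Junb in PFC, the log2 difference of CMS + MGO and control was 4.72 with 1 added and 7.99 with 0.1. Fos, Egr1 and Arc are therefore also counted without Junb below.

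**Figure D1:**
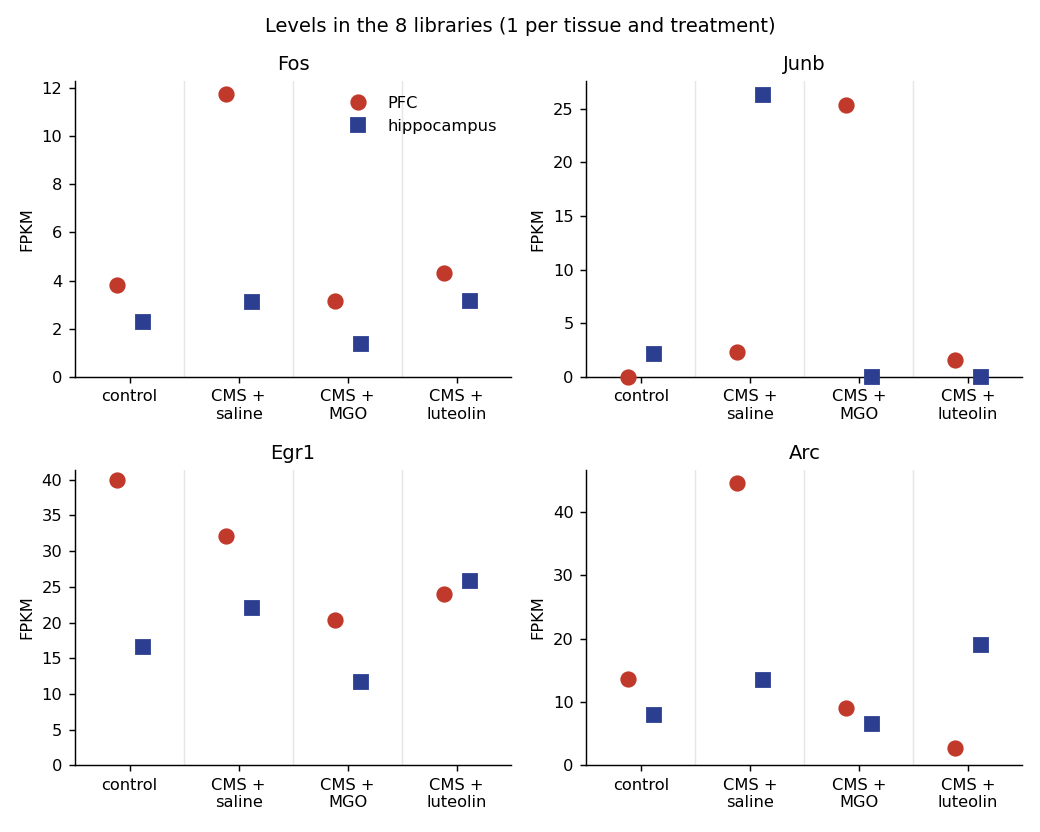
FPKM (y axes, from 0) of Fos, Junb, Egr1 and Arc in each library by treatment (x axes), with PFC as red circles and hippocampus as blue squares, 1 library per point and no error bars. Fos reaches 11.8 and Arc 44.5 FPKM in CMS + saline PFC, and Junb is near 25 FPKM in 1 library of each tissue and at or near 0 in the others.

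The spread over the 4 libraries of a tissue can be read against all genes. The range of log2(FPKM + 1) was 3.59 for Arc, 1.63 for Fos and 0.94 for Egr1 in PFC, beside a median of 0.41 over the 12155 genes. In hippocampus it was 1.40 for Arc, 1.09 for Egr1 and 0.82 for Fos, beside a median of 0.46. Arc varied more than 98.9% of genes in PFC and 91.5% in hippocampus, Fos more than 93.1% and 79%, and Egr1 more than 83.9% and 86.8%. Junb had the widest range of the 4 members, 4.72 in PFC and 4.77 in hippocampus, each wider than 99.6% of genes. Its ranges start from libraries listed at 0. The libraries came from different treatments, so this spread includes treatment and rat.

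PFC and hippocampus were compared first. The mean of Fos was 5.76 ± 4.04 FPKM for PFC and 2.47 ± 0.847 FPKM for hippocampus (SD, n = 4). It was higher in PFC under all 4 treatments, by 1.67 times in the control, 3.81 times with CMS + saline, 2.33 times with CMS + MGO and 1.37 times with CMS + luteolin. The mean of Egr1 was 29.1 ± 8.77 FPKM for PFC and 19 ± 6.21 FPKM for hippocampus (SD, n = 4), and it was higher in PFC under every treatment but luteolin, where the PFC value was 0.929 times the hippocampus value.

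In limma, with treatment as a block, the PFC minus hippocampus difference of Fos in log2(FPKM + 1) was 0.84 (SE 0.23, adjusted p = 0.0722) and that of Egr1 was 0.60 (SE 0.22, adjusted p = 0.135). The mean of Arc was 17.5 ± 18.6 FPKM for PFC and 11.7 ± 5.67 FPKM for hippocampus (SD, n = 4). Its limma difference was 0.096 (SE 0.68, adjusted p = 0.94), with PFC higher under 3 treatments and lower under luteolin. Its sign turned when the control, CMS + saline or CMS + MGO pair was left out (-0.11, -0.42 and -0.010). For Junb the limma difference was 0.34 (SE 1.34, adjusted p = 0.888), and -1.11 without the CMS + MGO pair.

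None of the 4 members passed the limma threshold (adjusted p under 0.05), beside 15.9% of all genes in the same fit. At an unadjusted p under 0.05 there were 2 members, Fos and Egr1, beside 34.7% of all genes. This count was 1 under 5 of the 9 alternative settings, beside 25.7% to 34.1% of all genes. It was 3 without the CMS + luteolin pair, beside 30.2% of all genes. Of all genes, 1937 made up the 15.9%, and leaving out 1 pair of libraries gave fewer calls: 838 for the luteolin pair, 623 for MGO, 499 for CMS + saline and 243 (2%) for the control. No other tool was run. The fit has 3 residual degrees of freedom, and p-values above the threshold do not show that the levels of the tissues were alike.

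Treatments were compared within each tissue, starting with CMS + saline against the control. In PFC, Fos was 3.08 times and Arc 3.28 times the control value. Their differences in log2(FPKM + 1) were 1.41 and 1.64, and 281 and 237 of the other genes were at least as far up. Junb went from listed at 0 to 2.29 FPKM. Egr1 was 0.803 times the control value, a log2 difference of -0.31. Thus 3 of 4 members were at least 2-fold higher, meaning a difference of at least 1 in log2(FPKM + 1), beside 3.92% of all genes, and none was at least 2-fold lower, beside 2.91%. Junb was counted from a control listed at 0, and without it the count was 2 of 3. The median of the members was 1.52 and that of all genes -0.022. Setting every library to the same sum moved the median of all genes to -0.16 and that of the members to 1.37.

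In hippocampus all 4 members were higher with CMS + saline than in the control, where 50.5% of all genes were. Arc was 1.70 times, Fos 1.36 times and Egr1 1.32 times the control value, with log2 differences of 0.70, 0.32 and 0.39. Junb, at 26.3 against 2.1 FPKM, was the only member at least 2-fold higher, beside 3.17% of all genes. None was at least 2-fold lower, beside 2.49%, and without Junb none was higher. The members' median log2 difference was 0.54 and that of all genes 0.0024.

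The next comparison was of CMS + MGO with CMS + saline. In PFC, Arc was at 0.204 times and Fos at 0.266 times the CMS + saline value. The log2 differences were -2.17 and -1.63, and 107 and 187 of the other genes were at least as far down. Egr1 was at 0.633 times, a log2 difference of -0.63. Junb went the other way, from 2.29 to 25.3 FPKM, and 46 other genes were at least as far up. At least 2-fold lower were 2 members, beside 3.19% of all genes, and 1 was at least 2-fold higher, beside 3.32%. Without Junb, 2 of 3 members were past 2-fold, both lower. The members' median was -1.13 and that of all genes 0.072.

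In hippocampus the same comparison gave lower values with MGO for all 4 members, where 48.9% of all genes were lower. Fos was at 0.436 times, Arc at 0.489 times and Egr1 at 0.527 times the CMS + saline value. Their log2 differences lay close together, at -0.80, -0.93 and -0.87. Junb went from 26.3 FPKM to listed at 0, and was the only member at least 2-fold lower on the log2(FPKM + 1) scale, beside 3.05% of all genes. None was at least 2-fold higher, beside 2.96%. With a pseudocount of 0.1 in place of 1, Fos (-1.14) and Arc (-1.02) passed 2-fold as well. The members' median was -0.90 and that of all genes 0.0038.

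Against the control, CMS + MGO was lower in each tissue for Fos, Egr1 and Arc. Fos was at 0.822 times the control in PFC and 0.591 times in hippocampus. Egr1 was at 0.508 and 0.699 times, and Arc at 0.67 and 0.832 times. Junb was higher in PFC (listed at 0 and 25.3 FPKM) and lower in hippocampus (2.1 FPKM and listed at 0). Junb was the only member at least 2-fold higher in PFC, beside 3.87% of all genes, and none was lower, beside 2.99%. In hippocampus Junb was the only one at least 2-fold lower, beside 2.62%, and none was higher, beside 3.05%. The Egr1 difference in PFC was -0.94 in log2(FPKM + 1), and with median-ratio size factors it was -1.01 and passed 2-fold. The members' medians were -0.37 in PFC and -0.48 in hippocampus, and those of all genes 0.062 and 0.0016.

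By direction alone, Fos, Egr1 and Arc were lower with CMS + MGO than in both the control and the CMS + saline library, in PFC and in hippocampus. This holds for 1366 of the 12155 genes (11.2%). The pattern was singled out after the values were seen and has no test. The control and CMS + saline libraries are shared with the comparisons above.

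**Figure D2:**
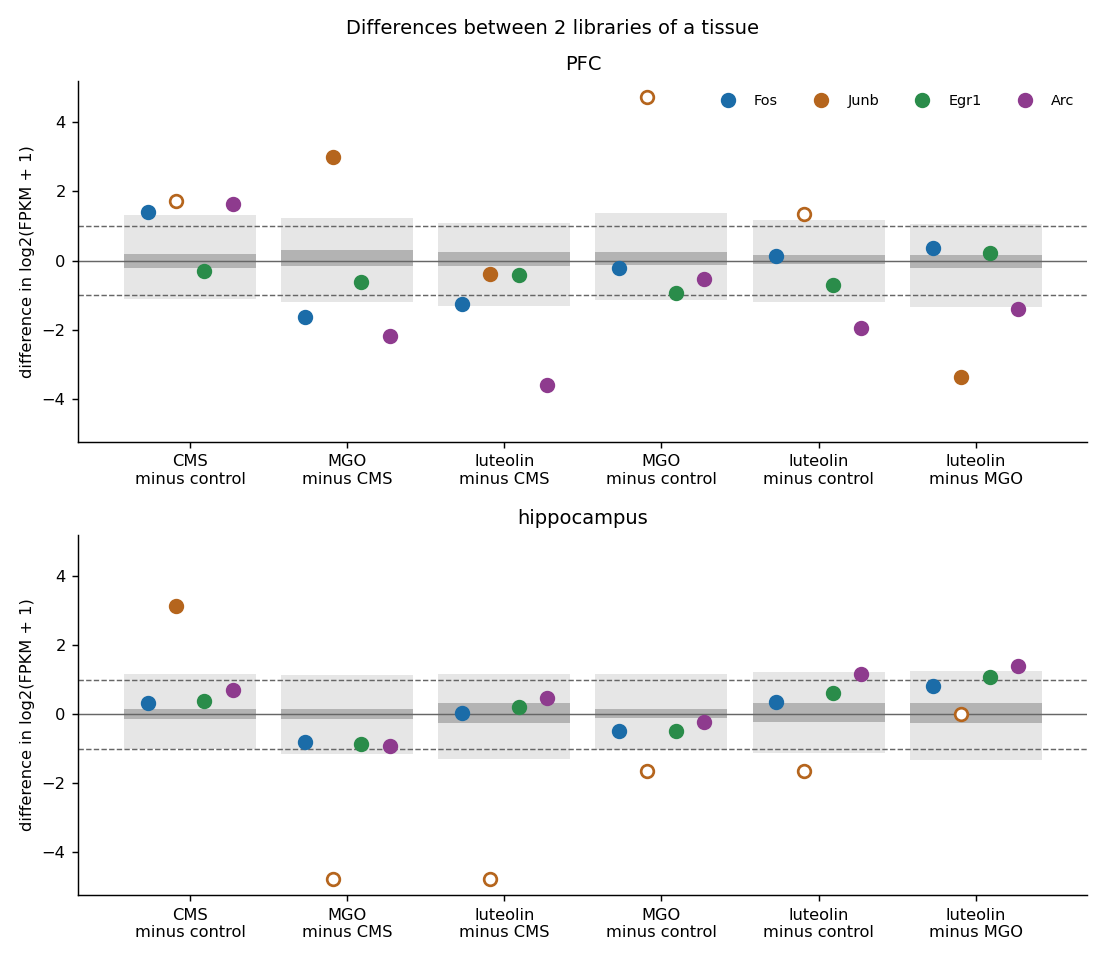
Differences in log2(FPKM + 1) (y axes) between 2 libraries of PFC (top) or hippocampus (bottom) for the 6 pairs of treatments (x axes), where CMS stands for CMS + saline and MGO and luteolin for the drugs under CMS. Points are the 4 members, open where 1 or both libraries are listed at 0, dark and light grey bands hold the middle 50% and the middle 95% of the 12155 genes, and dashed lines mark 2-fold; Fos and Arc lie above the light band for CMS minus control in PFC and below it for MGO minus CMS.

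The luteolin libraries were then set against CMS + saline. In PFC, Arc was at 44.5 FPKM with CMS + saline and at 2.78 FPKM with luteolin, a log2 difference of -3.59, with 37 other genes at least as far down. Fos was at 0.366 times the CMS + saline value, a log2 difference of -1.27. Egr1 was at 0.747 times and Junb at 0.668 times. At least 2-fold lower were 2 members, beside 3.75% of all genes, and none was higher, beside 2.76%. All 4 members were lower, beside 43.7% of all genes, and their median was -0.84, beside 0.044 over all genes.

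In hippocampus Fos (1.02 times), Egr1 (1.17 times) and Arc (1.41 times) were close to or above the CMS + saline value. The Fos difference of 0.022 turned to -0.013 with median-ratio size factors. Junb went from 26.3 FPKM to listed at 0 and was the only member at least 2-fold lower, beside 4.09% of all genes. None was at least 2-fold higher, beside 3.43%. The members' median was 0.12 and that of all genes 0.053. The direction for Fos, Egr1 and Arc was thus opposite in the tissues as deposited, as it was for 34% of all genes, and this contrast between tissues was not tested.

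Against the control, Arc differed with luteolin in opposite directions in the tissues, as did 45% of all genes. It was at 0.205 times the control in PFC, a log2 difference of -1.95, and at 2.40 times in hippocampus, a log2 difference of 1.17. Egr1 was at 0.6 times the control in PFC and 1.55 times in hippocampus, and Fos at 1.13 and 1.38 times. Junb went from listed at 0 to 1.53 FPKM in PFC and from 2.1 FPKM to listed at 0 in hippocampus. In PFC 1 member was at least 2-fold lower (Arc), beside 3.11% of all genes, and 1 higher (Junb), beside 3.19%. In hippocampus 1 was higher (Arc), beside 3.64%, and 1 lower (Junb), beside 2.97%. The members' medians were -0.29 in PFC and 0.47 in hippocampus, and those of all genes 0.026 and 0.050.

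Luteolin and MGO were also compared directly, both under CMS. In hippocampus, Arc was 2.88 times, Fos 2.34 times and Egr1 2.22 times as high with luteolin as with MGO. The log2 differences were 1.40 for Arc, 1.09 for Egr1 and 0.82 for Fos, so that 2 members were at least 2-fold higher, beside 3.76% of all genes, and none was lower, beside 4.35%. The Fos difference was 1.17 with a pseudocount of 0.1. Junb was listed at 0 in both libraries. The members' median was 0.96 and that of all genes 0.055, or 1.10 and 0.19 with every library set to the same sum.

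In PFC, Fos was 1.38 times and Egr1 1.18 times as high with luteolin as with MGO, while Arc was at 0.306 times and Junb at 0.0603 times. The last 2 were at least 2-fold lower, with log2 differences of -1.42 and -3.38, beside 3.69% of all genes, and none was higher, beside 2.67%. The members' median was -0.59 and that of all genes -0.036.

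Whether the members moved together was described from the order of the libraries. In hippocampus Fos, Egr1 and Arc had the same order, with CMS + MGO lowest, then control, then CMS + saline, and CMS + luteolin highest. This order was found in 961 of the 12155 genes (7.91%). Junb was set aside after the data were seen. Given the shared order, all 6 pairs of hippocampus libraries necessarily differed in the same direction for Fos, Egr1 and Arc. With median-ratio size factors it was 5 of 6 pairs, since CMS + saline and CMS + luteolin changed places for Fos. In PFC, 3 of 6 pairs did. Fos and Arc were highest with CMS + saline there, Egr1 was highest in the control, and the lowest library was CMS + MGO for Fos and Egr1 and CMS + luteolin for Arc. With Junb added, the counts were 3 of 6 pairs in hippocampus and 1 of 6 in PFC.

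**Figure D3:**
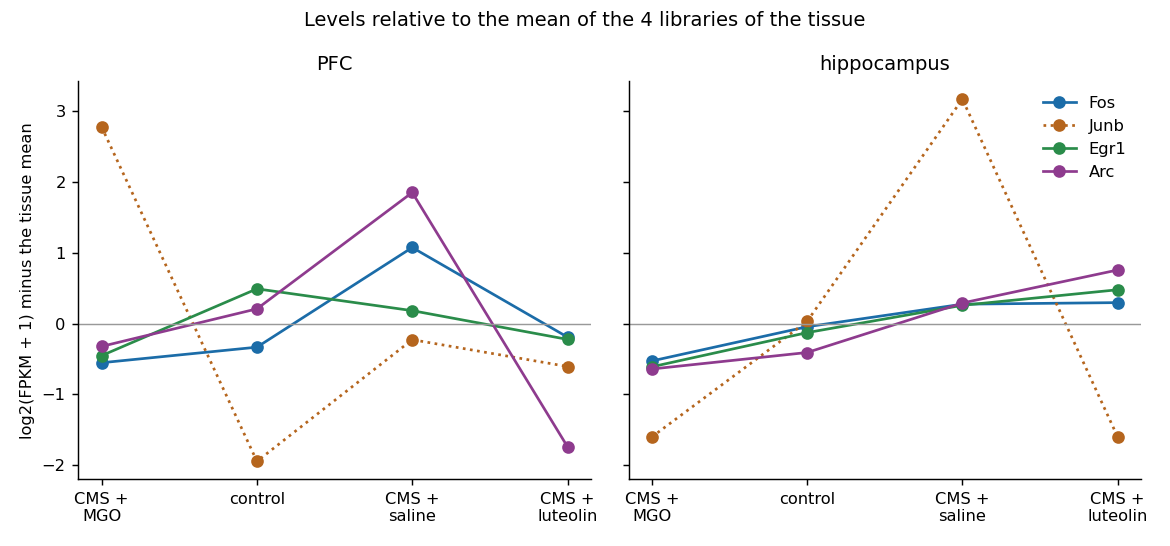
log2(FPKM + 1) minus the mean of the 4 libraries of the tissue (y axis, shared) by treatment (x axes, in the hippocampus order of Fos), for PFC (left) and hippocampus (right); each point is 1 library, and lines only join the points of a gene, dotted for Junb. In hippocampus the lines of Fos, Egr1 and Arc each rise from left to right, with different slopes, while in PFC none of them rises throughout.

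After the tissue mean was removed, Fos and Arc correlated over the 8 libraries with r = 0.77, Egr1 and Arc with r = 0.60 and Fos and Egr1 with r = 0.55. Junb correlated with Fos at r = 0.030, with Arc at r = 0.0040 and with Egr1 at r = -0.19. The 8 points share rats and treatments and are not independent, so these values are descriptions. Among the other 12154 genes, Fos ranked at place 126 by its correlation with Arc, and Arc at place 204 by its correlation with Fos. Egr1 ranked at place 570 for Arc and 831 for Fos. Junb ranked at place 5545 for Arc, 5160 for Fos and 7746 for Egr1, within the middle of all genes.

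The correlation of Fos and Arc rested in large part on the CMS + saline pair of libraries, and was 0.29 without it and 0.98 without the CMS + luteolin pair. That of Fos and Egr1 was 0.14 without the CMS + MGO pair and 0.84 without the control pair. That of Egr1 and Arc stayed between 0.53 and 0.71 whichever pair was left out. With a pair left out, Junb correlated with Fos at -0.26 to 0.28, with Egr1 at -0.56 to 0.043 and with Arc at -0.094 to 0.048. Over the 4 libraries of 1 tissue, r was 0.35 in PFC and 0.98 in hippocampus for Fos and Egr1, 0.75 and 0.89 for Fos and Arc, and 0.52 and 0.96 for Egr1 and Arc. For Junb it was -0.23 and 0.48 with Fos, -0.84 and 0.32 with Egr1, and -0.075 and 0.17 with Arc, so its sign differed between the tissues.

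**Figure D4:**
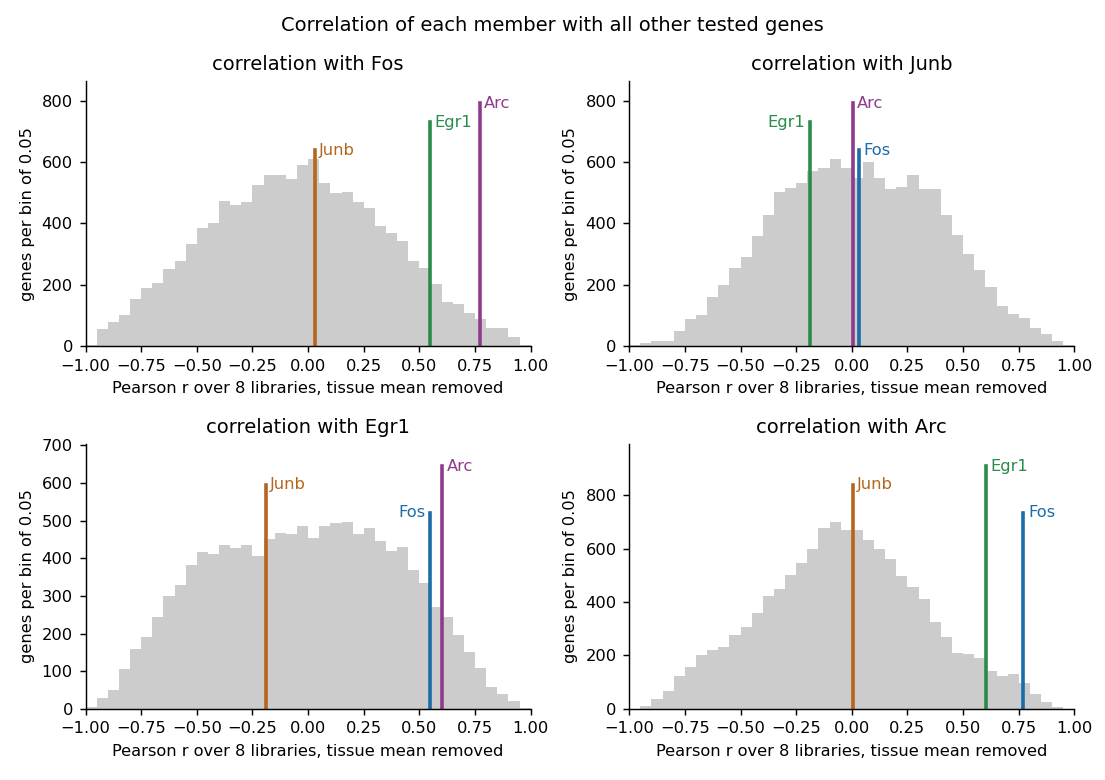
Histograms of Pearson's r (x axes) between each member and the other 12154 genes over the 8 libraries after removal of the tissue mean, with genes per bin on the y axes. Coloured lines mark the other 3 members, whose heights carry no value; for Fos, Egr1 and Arc the other 2 lie to the right, at 0.55 to 0.77, and Junb lies near the middle.

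The genes most like the mean profile of the 4 members, each centred on its tissue mean and scaled to the same spread, were ENSRNOG00000014061 (r = 0.99) and ENSRNOG00000010260 (r = 0.99). ENSRNOG00000014061 had PFC values of 1.51 (control), 2.55 (CMS + saline), 1.33 (CMS + MGO) and 1.02 FPKM (CMS + luteolin). Its hippocampus values were 3.92, 5.23, 3.06 and 4.60 FPKM in this order of treatments. Its r was 0.94 when Junb was left out of the profile. The genes least like the profile were ENSRNOG00000030449 (r = -0.97) and ENSRNOG00000002944 (r = -0.94). ENSRNOG00000030449 had PFC values of 34.8, 25.8, 42 and 41.4 FPKM and hippocampus values of 35.5, 23.2, 44.1 and 26.5 FPKM in this order, so that it was lowest in the CMS + saline library of each tissue. With Junb left out of the profile, ENSRNOG00000050374 (r = 0.96) was highest, followed by ENSRNOG00000014061. The lowest were then ENSRNOG00000054259 (r = -0.98) and ENSRNOG00000013194 (r = -0.95). Only ENSRNOG00000014061 was thus named both with and without Junb. These genes were the extremes of 12151 and have no symbol here.

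The sums of FPKM ran from 300281 to 352740 per library, with 11619 to 12028 genes reaching 1 FPKM. The absolute depth is not known. The ratio at which low values of the same gene pile up between libraries gave relative depths of 0.856 (CMS + saline PFC) to 1.34 (CMS + luteolin hippocampus), with control PFC as 1. The CMS + saline PFC library, where Fos and Arc were highest, thus had the lowest relative depth and the highest sum of FPKM. With every library set to the same sum, the median of all genes moved past 0.1 in the PFC comparisons with CMS + saline and the hippocampus comparisons with luteolin, to between -0.16 and 0.19, and no member changed direction. The part of depth in the values of Fos and Arc was not tested. Reads per gene were not recovered, so the counting error of Fos at 1.35 to 11.8 FPKM could not be given.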

How the data were processed

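Total RNA from PFC and hippocampus was sequenced on an Illumina HiSeq instrument, per the labels' protocols. StringTie 1.2.4, HISAT2 2.0.4 and FastQC 0.11.5 appear in the submitters' processing notes, with Rnor_6.0 (rn6) as the build. For the annotation release, the notes used here give nothing. Each library has 1 deposited value per gene, taken as FPKM made by the authors. The unit was inferred, since values are not whole and their sums differ between libraries. All 8 columns were matched by title.

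Values were analysed as log2(FPKM + 1), which understates differences of low genes, over the 12155 genes whose mean reached 1 FPKM. For PFC against hippocampus, limma 3.58.1 (R 4.3.3) was fitted with treatment as a block and a variance trend. Its two-sided p-values were adjusted by Benjamini-Hochberg over all 12155 genes, and the script was checked on simulated data. By the protocol, both tissues came from each rat it names, which gives the pairing. Luteolin libraries were paired by treatment. Deviations from the tissue means of the libraries of a treatment correlated across genes with r = 0.12 (control), 0.17 (stress and saline), 0.046 (MGO) and 0.11 (luteolin). Treatments were compared by differences between 2 libraries, with no test. Likeness was Pearson's r after removal of the tissue mean. Python 3.11.15, numpy 2.4.6, pandas 2.3.3 and matplotlib 3.10.9 were used. RefSeq's table of 47357 genes (GRCr8) matched 0 of the 31185 IDs, so lists by symbol and cell type markers were not evaluated. Named genes are the 4 members and, by ID where no symbol is paired, genes with extreme r to their mean profile. These were the 2 highest and the 2 lowest, with and without Junb in the profile. Members and lists were chosen with earlier results of these data known. Alternatives were another pseudocount, no filter, rescaled values, no block, a 1.5-fold threshold, Spearman's rho, single tissues and each treatment pair left out; leaving out Junb was chosen after seeing the data.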

Additional observations from a re-analysis of the deposited data

Results flagged for a closer look

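In a group of 4 libraries, a value far from the other 3 was looked for in 8 groups (4 genes and 2 tissues) by Dixon's criterion. Its rate of about 1 in 20 groups holds for 4 draws from 1 normal distribution, not for FPKM of 4 treatments. The share of all genes that meet it is not given here, so the groups named are a description. The criterion was met by Fos in PFC, where CMS + saline was at 11.8 FPKM and the others at 3.14 to 4.32 FPKM. Junb met it in each tissue, with 25.3 FPKM in CMS + MGO PFC and 26.3 FPKM in CMS + saline hippocampus. The libraries of a tissue differ in treatment, so they are not replicates of a condition.

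For Arc, 2 comparisons passed 2-fold with one sign in PFC and the other in hippocampus. With luteolin against the control the log2 differences were -1.95 in PFC and 1.17 in hippocampus, and with luteolin against MGO they were -1.42 and 1.40. By direction alone, 45% and 47.1% of all genes had opposite signs in the tissues in these comparisons. The share that also passed 2-fold is not given here. The difference between tissues was not tested, since each value comes from 2 libraries. Junb also passed 2-fold with opposite signs, each time with at least 1 library listed at 0. In PFC and hippocampus its log2 differences were 1.34 and -1.63 with luteolin against the control. They were 3.00 and -4.77 with MGO against CMS + saline, and 4.72 and -1.63 with MGO against the control. By direction alone, 43.8% of all genes had opposite signs with MGO against CMS + saline, and 43.6% with MGO against the control.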

How the results depend on the processing

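None of the 4 members passed the limma threshold between tissues under any of the 9 alternatives, where 2% to 19.7% of all genes passed it. The difference was reversed for Arc without the CMS + MGO pair (-0.010), the CMS + saline pair (-0.42) and the control pair (-0.11), and for Junb without the CMS + MGO pair (-1.11). With a pair left out, the range was -0.42 to 0.93 for Arc and -1.11 to 1.48 for Junb. With no replicate block the differences were the same, and the adjusted p was 0.146 for Fos and 0.178 for Egr1. Of the counts of members at least 2-fold apart, that for MGO against control in PFC was 1 and became 2 with median-ratio size factors (beside 6.81% of all genes in either direction), with equal sums (6.79%) or at 1.5-fold (13.1%). In hippocampus, that for CMS + saline against control went from 1 to 2 at 1.5-fold (10.5% of all genes). That for MGO against CMS + saline in hippocampus went from 1 to 3 with a pseudocount of 0.1 (7.62%) and to 4 at 1.5-fold (10.8%). Without Junb, the counts became 0 for MGO against control in each tissue (6.86% of all genes in PFC and 5.68% in hippocampus, in either direction). In hippocampus they also became 0 for CMS + saline against control (5.66%) and for MGO (6.01%) and luteolin (7.52%) against CMS + saline. They became 1 for luteolin against control in PFC (6.3%) and hippocampus (6.61%) and for luteolin against MGO in PFC (6.37%). The median rank of the other members by likeness was 3127.5, and 692.5 without Junb, 4609 in PFC alone, 1820.5 in hippocampus alone and 3075.5 to 6007.5 with a pair left out, the highest without CMS + saline. With 1 library per group no replicate error exists for any treatment difference. Reads per gene are not known, so the counting error of low values was not measured.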
